A study of Mus musculus with 18 samples.

Results

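A set of 53 genes declined from d0 to d6 of neural differentiation (ND) in control (Ctrl) mouse embryonic stem cells (ESCs) while their mean level in Zeb2 knockout (KO) cells stayed near or above its own d0 value. The set was chosen by measured values: the mean log2(TPM + 1) over the 3 libraries of a group had to be at least 1.5 lower at d6 than at d0 in Ctrl, and the same difference in Zeb2 KO had to lie above -0.5 and below 2. TPM is a transcript level scaled to gene length and to the whole library. Of 10965 genes in the table, 513 met the Ctrl condition, and the 53 members were 10.3% of these. The other 460 were lower by 0.5 or more in Zeb2 KO as well, and none reached the upper limit.

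RNA-seq was available for 18 libraries, 3 each from Ctrl (Zeb2 fl/fl) and Zeb2 KO (Zeb2 -/-) ESCs at d0, d4 and d6, with CD1 given as the strain of all of them. At d0 the cells grew without feeders in 2i + LIF, the MEK and GSK3 inhibitors plus leukemia inhibitory factor that hold ESCs in the ground state. They were then floated as embryoid bodies (EBs) in 15% serum until d4 and moved to N2B27 with 500 nM retinoic acid, so d6 cells had seen retinoic acid and d4 cells had not. Zeb2 KO lines were made from floxed ESCs by transfected Cre, and a second derivation on a mixed background also existed. Each stage was described as 3 independent experiments, but the labels do not give how many lines or clones were sequenced, so the difference between genotypes and the difference between lines cannot be told apart.

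Zeb2 is a zinc finger and homeodomain transcription factor that binds paired CACCT sequences and is best known as a repressor of epithelial genes and a regulator of neural development. When ESCs leave 2i + LIF, naive factors such as Klf4 and Esrrb are shut off first, a Nodal-dependent epiblast-like program follows, and neural commitment requires that Nodal signaling and the remaining pluripotency genes are then switched off. Zeb2 itself had a mean of 0.129, 1.36 and 7.66 TPM at d0, d4 and d6 in Ctrl and of 0.0216, 0.164 and 0.681 TPM in Zeb2 KO. Its level thus rose in both genotypes over these days and stayed far lower in Zeb2 KO. Any link between its course and that of the members was not tested.

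Because the d0 and d6 libraries chose the members, their values are given as a description. Over the members, the median of the Ctrl group means went from 39.0 TPM on d0 through 26.0 on d4 to 8.86 on d6, and in Zeb2 KO the same median was 33.6, 33.7 and 32.9 TPM. Ctrl cells kept a median of 23.6% of the d0 TPM at d6, ranging from 5.81% for Foxd3 to 33.9%, whereas Zeb2 KO cells kept 93.9%, ranging from 64.9% to 290%. The word silenced would overstate the Ctrl values, since only 1 member, Vmn2r-ps20, had a Ctrl d6 mean under 1 TPM and 26 of the 53 stayed at 10 TPM or more. At d6 the libraries of the genotypes overlapped for Inhbb, Prss45, Gm5229, Gm14870 and Gm17080. For the other members all Zeb2 KO libraries lay above all Ctrl libraries, which the rule itself makes likely because it used these libraries.

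**Figure D1:**
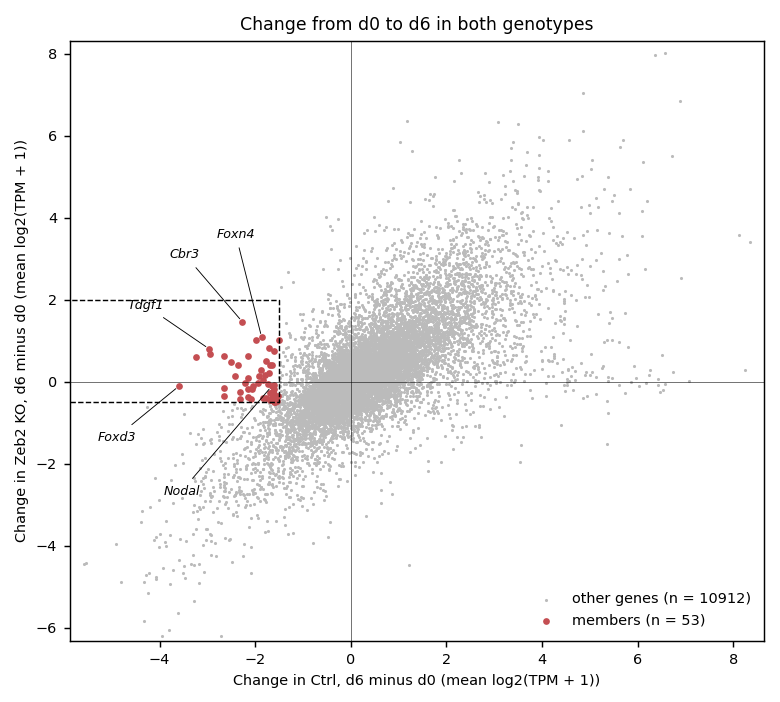
Change from d0 to d6 in Ctrl (horizontal) and in Zeb2 KO (vertical), as the difference of mean log2(TPM + 1) over 3 libraries per group, for all 10965 genes. Red points are the 53 members inside the dashed limits of the rule; most genes that were lower in Ctrl were also lower in Zeb2 KO, and Foxd3 is the member farthest to the left (-3.60 in Ctrl, -0.12 in Zeb2 KO).

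Kept was not the right word for every member either. The d0 mean was lower in Zeb2 KO than in Ctrl for 42 of 53 members. The median difference of the members at d0 was -0.36 on the log2 scale, against -0.07 over all genes. The rule favors a high d0 mean in Ctrl and a low one in Zeb2 KO, so this difference is in part set by the rule. In Zeb2 KO 4 members were already lower by 1 or more: Foxn4 (-2.51), Prss45 (-1.97), Inhbb (-1.95) and Pla2g1b (-1.19). In contrast, 16 members had a d6 mean in Zeb2 KO above the d0 mean of Ctrl, and 4, among them Cbr3, Foxn4 and Mup6, were higher at d6 than at d0 in Zeb2 KO by more than 1 on the log2 scale. Near the Ctrl limit, Gnpnat1 (-1.52) lay inside, and just outside it lay Nr4a1 (-1.498) and C330018A13Rik (-1.49). At the lower limit in Zeb2 KO the nearest members were Nfkbid and Gm17080 (both -0.50 when rounded) and the nearest genes outside were Atp1b1 (-0.52) and Platr7 (-0.54). At the upper limit Cbr3 (1.47) and Foxn4 (1.09) came nearest.

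The 6 libraries of d4 had no part in the rule, so the difference between genotypes at d4 was the only contrast tested. At this stage 33 of the 53 members were called higher in Zeb2 KO and 2 were called lower (limma on log2(TPM + 1), Benjamini-Hochberg adjusted p under 0.01, two-sided), against 12.7% of all genes called higher and 32.7% called lower. The median log2 fold change of the members was 0.79, ranging from -0.83 to 4.59, and 47 of 53 were above 0, while the median over all genes was -0.16. All 3 Zeb2 KO libraries lay above all 3 Ctrl libraries for 39 members, against 20.0% of all genes, below them for 4 (Foxn4, Gca, Inhbb and Pcyt1b) and among them for 10. Among the 460 genes that were lower at d6 in both genotypes, 121 (26.3%) were called higher, 75 (16.3%) were called lower and the median was 0.11. Without the 4 members that started lower in Zeb2 KO, 32 of 49 were called higher and 1 lower.

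These fold changes depend on how libraries are scaled, since the all-gene median of -0.16 moved to 0.00 under median-ratio or quantile scaling. The share of d4 calls over all genes that were higher in Zeb2 KO was 28.0% as fitted, 49.6% after median-ratio rescaling and 48.4% after quantile normalization. Members called higher numbered 37 and 39 under these scalings. The number of all genes called higher rose under both as well, so these counts are not to be set against the 12.7% of the main fit. Of the 35 member calls, 27 were made at the same adjusted threshold under every alternative fit that tested them.

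**Figure D2:**
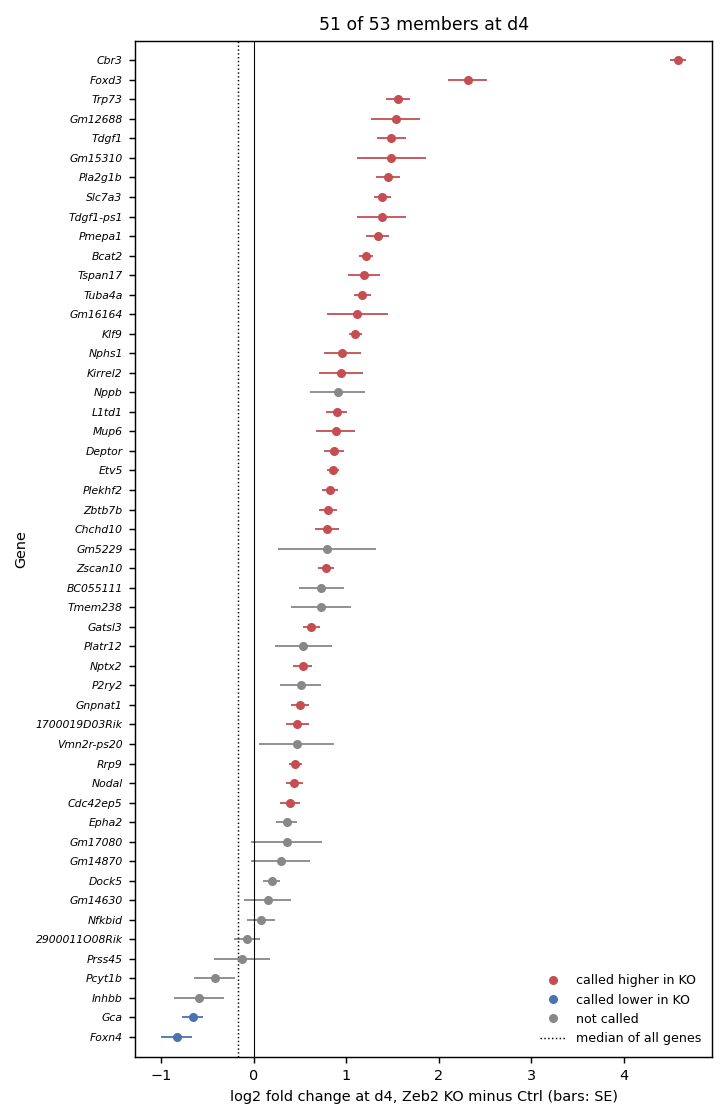
Log2 fold change of 51 of the 53 members at d4, Zeb2 KO minus Ctrl on the log2(TPM + 1) scale, with the standard error from limma (3 libraries per group). Red points were called higher in Zeb2 KO, blue lower and gray points were not called; the dotted line is the median of all genes (-0.16), and Cbr3 stands apart at 4.59.

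Members are described by role below. The roles were assigned after the values were seen, and so were the names of members outside the naming rule. Transcription factors and other regulators of RNA made up 10 members, of which 7 were called higher at d4, 1 lower and 2 not. Nodal and TGF-beta signaling held 4 (3 higher), other signaling 8 (4 higher), metabolism and transport 7 (6 higher), and cell surface and secreted proteins 7 (5 higher). A further 7 coding genes had 4 called higher and 1 lower, and 10 pseudogenes or noncoding genes had 4 called higher. Over all members 62.3% were called higher and 3.77% lower, and over all genes 12.7% and 32.7%. With so few members per role, no difference between roles is read from these counts.

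Foxd3, a forkhead factor required to maintain pluripotent cells, had the largest decline in Ctrl of all members. Its Ctrl libraries held 51.3, 30.6 and 40.9 TPM at d0, 4.86, 8.96 and 4.64 at d4, and 2.39, 2.37 and 2.37 at d6. In Zeb2 KO they held 34.8, 46.6 and 40.6 TPM at d0, 34.2, 27.5 and 39.3 at d4, and 35.1, 35.9 and 40.9 at d6. The genotypes overlapped at d0, and at d4 even the lowest Zeb2 KO library was above the highest Ctrl library. The d4 log2 fold change was 2.31 ± 0.21 (SE, n = 3 libraries per group, limma adjusted p = 1.79e-07). Gm12688, a lincRNA that starts 1316 bases from Foxd3 on the opposite strand of chromosome 4 (99653607 to 99654983; Foxd3 at 99656299 to 99658622, GRCm38), had a like course: 15.4, 18.3 and 15.4 TPM in Ctrl at d4 against 37.5, 53.7 and 59.4 in Zeb2 KO. Its d4 log2 fold change was 1.54 ± 0.26 (limma adjusted p = 0.000143).

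Zscan10, a zinc finger factor of the ESC network, L1td1, an RNA-binding protein abundant in pluripotent cells, and Etv5, an ETS factor downstream of FGF signaling, were all called higher at d4. Zscan10 held 46.5, 49.6 and 50.0 TPM in Ctrl and 76.9, 88.8 and 88.7 in Zeb2 KO at d4 (log2 fold change 0.79 ± 0.08, limma adjusted p = 1.34e-06). L1td1 held 210, 203 and 213 TPM in Ctrl at d4, close to its d0 values of 248, 216 and 233, and 360, 401 and 412 in Zeb2 KO (0.90 ± 0.11, limma adjusted p = 5.3e-06). Its Ctrl decline therefore came almost wholly between d4 and d6, with libraries at 52.9, 47.1 and 54.8 TPM on d6, while Zeb2 KO libraries stood at 400, 281 and 306. Etv5 held 86.0, 80.9 and 76.0 TPM in Ctrl and 145, 147 and 150 in Zeb2 KO at d4 (0.86 ± 0.06, limma adjusted p = 2.49e-08), after a d0 level that was lower in Zeb2 KO (95.5, 110 and 98.6 against 139, 127 and 127).

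Trp73, a relative of the tumor suppressor p53, and Klf9, a Kruppel-like factor, were also called higher at d4. Trp73 held 6.78, 8.75 and 8.46 TPM in Ctrl and 22.7, 24.8 and 29.0 in Zeb2 KO (1.56 ± 0.13, limma adjusted p = 6.93e-08). Klf9 was lower in Zeb2 KO at d0 (143, 145 and 139 TPM against 206, 210 and 209), and by d4 the order was the opposite, with 160, 148 and 150 TPM against 69.6, 78.0 and 64.6 (1.10 ± 0.07, limma adjusted p = 2.15e-09). Its level in Zeb2 KO therefore hardly moved over the 3 stages while that of Ctrl passed below it. Zbtb7b, which encodes the factor ThPOK, differed from most members because it was low at d4 in both genotypes: 4.93, 5.66 and 4.94 TPM in Ctrl and 9.24, 10.2 and 9.88 in Zeb2 KO, against 41.9 to 44.8 and 32.7 to 37.1 TPM at d0. It was called higher by 0.81. Nfkbid, an atypical IkB protein, differed by 0.08 at d4 and was not called.

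Foxn4, a forkhead factor of retinal and spinal cord progenitors, was the member with the most negative d4 value. Its libraries held 10.7, 12.8 and 14.7 TPM in Ctrl and 1.51, 1.02 and 1.71 in Zeb2 KO at d0, and 10.2, 9.57 and 7.43 against 5.71, 4.02 and 4.29 at d4. At d6 Ctrl held 2.38, 3.27 and 2.60 TPM and Zeb2 KO 3.74, 4.18 and 4.38. The order of the genotypes thus turned as Ctrl declined and Zeb2 KO rose from its very low start, a rise already seen at d4. The d4 log2 fold change was -0.83 ± 0.17 (limma adjusted p = 0.000515), and this call was lost under quantile scaling (-0.55).

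**Figure D3:**
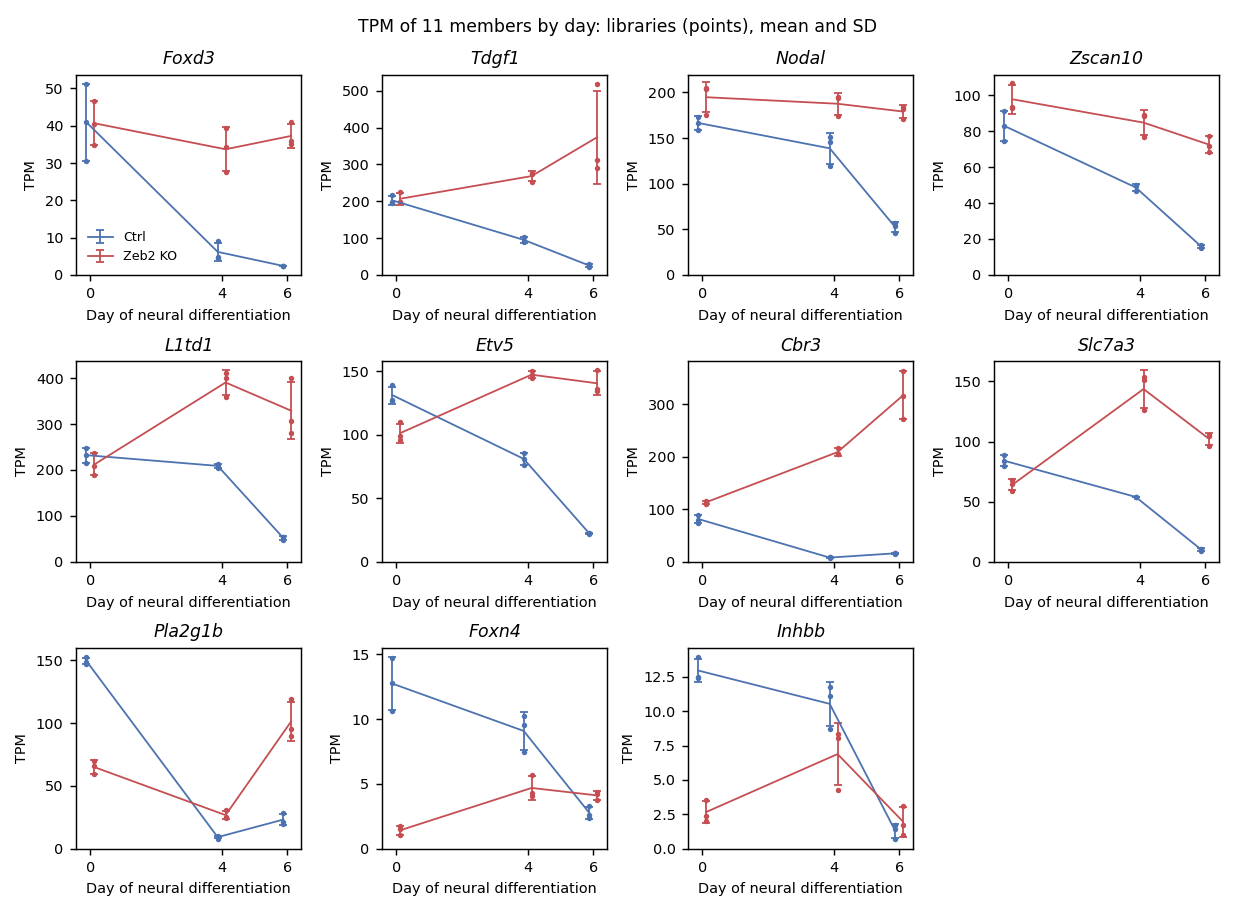
TPM of 11 members at d0, d4 and d6 of ND in Ctrl (blue) and Zeb2 KO (red); points are single libraries, lines join group means and bars are SDs (n = 3), and each panel has its own vertical axis from 0. Foxd3, Tdgf1 and Cbr3 had separated by d4, and Pla2g1b, Foxn4 and Inhbb started lower in Zeb2 KO.

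In the Nodal pathway the ligand Nodal and its co-receptor Tdgf1 (Cripto) were members. Tdgf1 held 194, 216 and 197 TPM in Ctrl and 197, 198 and 226 in Zeb2 KO at d0, with overlapping libraries. At d4 Ctrl held 104, 92.3 and 89.1 TPM and Zeb2 KO 277, 275 and 253 (1.49 ± 0.16, limma adjusted p = 1.36e-06). At d6 Ctrl held 28.4, 21.0 and 25.7 TPM and Zeb2 KO 519, 291 and 312, a ratio of means of 14.9. Tdgf1-ps1, a processed pseudogene copy of Tdgf1 on chromosome 16, moved with it, at 263, 235 and 213 TPM against 603, 678 and 576 at d4. With single reads of 36 bases the reads of the gene and its copy may have been split or shared, so these are not independent observations. Nodal was only slightly lower at d4 than at d0 in Ctrl, at 151, 146 and 120 TPM after 167, 159 and 174, and Zeb2 KO held 195, 174 and 194 (0.44 ± 0.09, limma adjusted p = 0.000758). By d6 the Ctrl libraries stood at 56.8, 53.4 and 46.3 TPM and the Zeb2 KO libraries at 182, 171 and 184.

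Pmepa1, a TGF-beta target that dampens SMAD signaling, held 7.82, 6.42 and 5.63 TPM in Ctrl and 20.3, 18.0 and 16.4 in Zeb2 KO at d4 (1.34 ± 0.13, limma adjusted p = 3.74e-07). Inhbb, the activin beta B subunit, went the other way at d0 (12.5, 12.4 and 13.9 TPM in Ctrl, 2.03, 2.40 and 3.56 in Zeb2 KO) and overlapped at d6. Its d4 values were 11.8, 11.1 and 8.71 TPM against 8.32, 4.26 and 8.06, and it was not called (-0.59 ± 0.27, limma adjusted p = 0.0745). Of the 15 genes of a Nodal pathway list, 4 were called higher at d4 (Nodal, Tdgf1, the antagonist Lefty2 at 1.60 and the inhibitory Smad7 at 0.65) and 6 lower, namely the receptors Acvr1b, Acvr2a and Acvr2b, the mediators Smad2 and Smad3, and the protease Furin. Without the 2 members, 2 of the other 13 were called higher and 6 lower. Among all genes 12.7% were called higher and 32.7% lower, and with so few list genes nothing is read from these counts. After median-ratio rescaling 5 of the 15 were higher and 5 lower, with the Acvr2b call lost.

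Among the general pluripotency genes, 4 of 20 were members (Tdgf1, L1td1, Zscan10 and Foxd3). Of the 12 that were lower in Ctrl by 1.5 or more, 8 were lower by 0.5 or more in Zeb2 KO too, among them Pou5f1 (-3.49 in Ctrl, -0.79 in Zeb2 KO) and Nanog (-3.51 and -2.00). In total 12 of the 20 were called higher at d4 and 2 lower, or 12 and 0 after median-ratio rescaling. All 14 naive factors were lower in Ctrl at d6, and 13 of them were also lower in Zeb2 KO. Foxd3 was the only member among 12 postimplantation epiblast genes, of which 8 were called higher at d4 and 2 lower. Of the other 11, 7 were called higher and 2 lower. Among all genes 12.7% were called higher and 32.7% lower. The general pluripotency and epiblast lists were chosen with earlier results known. They hold genes that the paper reported from these libraries as raised or not fully downregulated in Zeb2 KO. Their counts are therefore in part set by the choice of genes. No member belonged to the epithelial, DNA methylation, germline, two-cell-like, imprinted, glycolysis, one-carbon or lineage marker lists.

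Other signaling genes differed less at d4. Deptor, an inhibitor of mTOR, held 28.4, 25.9 and 23.7 TPM in Ctrl and 46.5, 48.7 and 49.5 in Zeb2 KO (0.87 ± 0.11, limma adjusted p = 8.24e-06). Gatsl3, the arginine sensor of the mTORC1 pathway also known as Castor1, held 68.8, 80.4 and 63.2 TPM against 124, 103 and 101 (0.63, limma adjusted p = 4.28e-05). The groups did not overlap for either of these regulators of mTOR. Cdc42ep5, a Cdc42 effector, was called higher by 0.39, and this call was lost without Ctrl replicate 1 or 3 or Zeb2 KO replicate 1 and with the d4 libraries alone (adjusted p from 0.0130 to 0.0434). The ephrin receptor Epha2 (0.36), the nucleotide receptor P2ry2 (0.51), the natriuretic peptide gene Nppb (0.91) and the Rac activator Dock5 (0.20) were not called, although each was called under 1 or more of the other scalings. Nppb had at most 1 recovered read in any Ctrl library at d4, and it was called without Zeb2 KO replicate 2 (1.23, adjusted p = 0.00225).

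Cbr3, a carbonyl reductase, was the member in which the genotypes parted most. Ctrl libraries held 89.6, 79.9 and 74.2 TPM at d0, 7.14, 7.99 and 8.09 at d4, and 15.2, 16.0 and 16.6 at d6. Zeb2 KO libraries held 116, 114 and 110 at d0, 205, 217 and 205 at d4, and 273, 315 and 364 at d6. Relative to d0 the genotypes moved in opposite directions, both were higher at d6 than at d4, and their libraries did not overlap at any stage. The d4 log2 fold change of 4.59 ± 0.09 (limma adjusted p = 6.97e-15) was the largest positive value among all 10965 genes, and the d6 ratio of means was 19.9.

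A transporter and an enzyme of amino acids were among the metabolic members. Slc7a3, a transporter of arginine and lysine, held 53.8, 54.1 and 53.8 TPM in Ctrl and 126, 154 and 152 in Zeb2 KO at d4 (1.39 ± 0.09, limma adjusted p = 5.05e-09), although at d0 Zeb2 KO had been lower (59.1, 64.9 and 68.0 against 88.6, 79.6 and 83.8). Bcat2, the mitochondrial branched-chain aminotransferase, held 59.0, 55.3 and 58.0 TPM against 126, 142 and 137 at d4 (1.22 ± 0.07, limma adjusted p = 2.49e-09). For both transporter and enzyme, the lowest Zeb2 KO library at d4 was far above the highest Ctrl library.

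Pla2g1b, a secreted phospholipase, reached its lowest level at d4 in both genotypes. It held 148, 152 and 147 TPM in Ctrl and 69.9, 59.3 and 65.6 in Zeb2 KO at d0, and 9.99, 9.35 and 7.90 against 24.0, 30.5 and 25.4 at d4 (1.45 ± 0.13, limma adjusted p = 2.23e-07). At d6 Ctrl stood at 28.3, 21.2 and 19.8 TPM and Zeb2 KO at 119, 95.7 and 89.4, so the Zeb2 KO level had returned from a trough and had not been held. Chchd10, a mitochondrial intermembrane space protein and the most abundant member, held 552, 581 and 413 TPM in Ctrl and 996, 748 and 933 in Zeb2 KO at d4 (0.80 ± 0.13, limma adjusted p = 8.45e-05). Gnpnat1, an enzyme of UDP-GlcNAc synthesis, was called higher by 0.50. Pcyt1b, an enzyme of phosphatidylcholine synthesis, had its Zeb2 KO libraries below Ctrl at d0 and d4 (-0.42 at d4, not called) and above only at d6, where replicate 1 stood apart at 33.7 TPM against 15.4 in both others.

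Nphs1 and Kirrel2 encode nephrin and its partner, immunoglobulin family proteins of the kidney slit diaphragm, and lie 625 bases apart in opposite directions on chromosome 7 (Kirrel2 30447534 to 30457690, Nphs1 30458315 to 30487223, GRCm38). Nphs1 held 21.5, 24.4 and 21.2 TPM in Ctrl and 44.3, 41.7 and 47.3 in Zeb2 KO at d4 (0.96 ± 0.20, limma adjusted p = 0.000643). Kirrel2 held 8.43, 10.4 and 8.11 TPM against 18.3, 16.3 and 19.9 (0.94 ± 0.24, limma adjusted p = 0.00313). At d6 Ctrl held 3.45, 2.80 and 3.41 TPM of Nphs1 and 1.29, 1.70 and 0.844 of Kirrel2. Zeb2 KO held 44.1, 25.7 and 18.8 and 17.5, 13.0 and 6.94, with replicate 1 highest and replicate 3 lowest for both. This order was not particular to these genes, since Inhbb, BC055111 and Platr12 had it too, while Cbr3 and Foxd3 had the opposite order. Replicates differed most in Zeb2 KO at d6. The mean squared difference relative to counting noise was 13.9 and 24.1 for the comparisons with replicate 1, and at most 11.8 for any other. The Kirrel2 call at d4 was lost when Ctrl replicate 1 or 3, or Zeb2 KO replicate 1 or 3, was left out (adjusted p from 0.0106 to 0.0147). Nfkbid lies 18788 bases from Kirrel2 with Aplp1 between them, and Aplp1 was no member (mean 109 TPM at d0 and 65.2 at d6 in Ctrl, 84.0 and 124 in Zeb2 KO).

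Of the other surface and secreted proteins, Tspan17, a tetraspanin (1.20), Nptx2, a neuronal pentraxin (0.53), and Mup6, a member of the major urinary protein family (0.89), were called higher at d4. Mup6 peaked at d4 in both genotypes, at 35.4, 27.4 and 39.0 TPM in Ctrl and 58.6, 62.2 and 68.5 in Zeb2 KO, and was at 2.14 to 2.74 TPM in Ctrl and 29.1 to 39.0 in Zeb2 KO at d6. Its call was lost without Ctrl replicate 2 (0.74, adjusted p = 0.0135). Members of this family are near-identical, so its reads may belong to another copy. Tmem238 (0.73) and the serine protease Prss45 (-0.12) were not called, although Tmem238 was after quantile normalization (1.09, limma adjusted p = 0.00666). Prss45 held 9.41, 8.86 and 12.3 TPM in Ctrl but 1.58, 1.54 and 2.48 in Zeb2 KO at d0, and at d6 the libraries overlapped (0.872, 1.30 and 1.54 against 3.33, 0.842 and 0.705), so it met the rule without a difference at d6.

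Tuba4a, an alpha-tubulin, held 27.9, 28.1 and 25.3 TPM in Ctrl and 58.1, 65.7 and 64.1 in Zeb2 KO at d4 (1.18 ± 0.09, limma adjusted p = 2.79e-08), from overlapping ranges at d0. Plekhf2, an endosomal protein, held 126, 116 and 89.1 TPM against 199, 197 and 186 (0.82 ± 0.09, limma adjusted p = 1.34e-06). Rrp9, a subunit of the U3 snoRNP of ribosome synthesis, was called higher by 0.45 and 1700019D03Rik by 0.48, the latter not without Ctrl replicate 3 or Zeb2 KO replicate 2 or 3 (adjusted p from 0.0129 to 0.0194), whereas BC055111 (0.73) and 2900011O08Rik (-0.07) were not called. BC055111 was called after median-ratio rescaling (0.83, limma adjusted p = 0.00695) and quantile normalization (1.10, limma adjusted p = 0.000729). Gca, the calcium-binding protein grancalcin, was the other member called lower, at 27.4, 28.5 and 29.1 TPM in Ctrl and 17.1, 21.7 and 14.6 in Zeb2 KO (-0.66 ± 0.12, limma adjusted p = 0.000173). It was also lower at d0 (33.9, 33.9 and 32.9 TPM in Zeb2 KO against 62.1, 72.5 and 57.6 in Ctrl), and its d6 ratio of means, 1.27, was the smallest of all members.

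The set held 7 pseudogenes (13.2%, against 10.8% of all genes). Gm15310 (1.49) and Gm16164 (1.12), like Tdgf1-ps1 (1.38) and Gm12688, were called higher at d4, but Gm15310 lost the call without Ctrl replicate 2 or 3 or Zeb2 KO replicate 1 (adjusted p from 0.0126 to 0.0150), and Gm16164, whose d4 libraries overlapped, kept it under only 6 of 14 alternatives. The Gm16164 call was lost without Ctrl replicate 1 or 3 or Zeb2 KO replicate 2 or 3, with the d4 libraries alone, with an untrended prior, with the replicate block and with voom on recovered reads (adjusted p from 0.0110 to 0.0565). Gm15310 overlaps Pigp on the same strand over its whole 372 bases. Gm5229, Gm14630, Gm14870, Vmn2r-ps20, the processed transcript Platr12 and the antisense Gm17080 were not called, with values from 0.15 to 0.79; Vmn2r-ps20 was called without Zeb2 KO replicate 1 (1.08, adjusted p = 0.00767). In all, 9 members had 10 or fewer recovered reads in every Ctrl library at d6. Vmn2r-ps20 had 0 reads in all 3 once the inferred added read was taken off, so its Ctrl d6 mean rests on that added read alone. A count of 0 allows up to 3 reads per library, so no d6 fold is given for it. Gm17080 lies opposite Slc29a1, Nphs1 opposite Nphs1os, Chchd10 opposite part of Mmp11, Gnpnat1 opposite Styx and Bcat2 opposite 0610005C13Rik, and since the strand setting of the counting is not given, reads of such partners cannot be told apart.

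The members left their d0 level in Ctrl at different times. By d4, 13 had covered at least 0.75 of their decline (among them Cbr3, Pla2g1b, Klf9, Pmepa1 and Tuba4a), 24 had covered part of it, and 16 had covered 0.25 or less (among them Nodal, L1td1, Slc7a3, Deptor and Kirrel2). In 5 of the 16, among them Mup6, Nphs1, 1700019D03Rik and Pcyt1b, the Ctrl level at d4 was above that at d0. At d4, 8 of the 13 early genes, 17 of the 24 intermediate genes and 8 of the 16 late genes were called higher in Zeb2 KO (medians 0.91, 0.79 and 0.46). The Ctrl level at d4 enters both this grouping and the d4 fold change, so the order of the medians is in part set by the grouping and nothing is read from it. In Zeb2 KO itself the level at d4 was lower than at d0 by 1 or more for Pla2g1b, Nppb and Zbtb7b and higher by 1 or more for 6 members, among them Slc7a3, Inhbb, Mup6, Foxn4 and Nphs1.

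**Figure D4:**
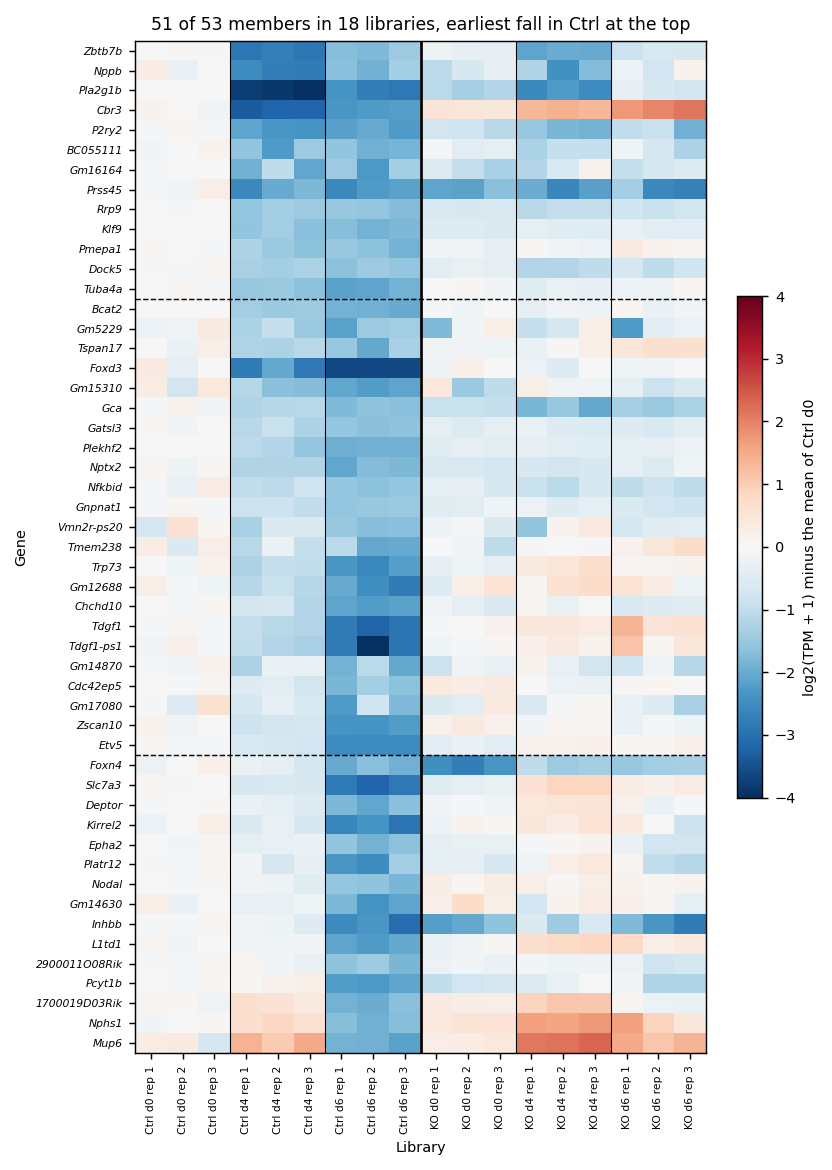
Heat map of 51 of the 53 members (rows) in 18 libraries (columns), colored by log2(TPM + 1) minus the Ctrl d0 mean of each gene (color range cut at ±4) and ordered by the share of the Ctrl decline reached by d4. Dashed lines divide early, intermediate and late members; Ctrl d6 columns are blue throughout, and the 4 members that started lower in Zeb2 KO (Foxn4, Inhbb, Prss45 and Pla2g1b) are blue in its d0 columns too.

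Promoter sequences are shown for 5 members to set the letters of the CACCT motif beside the d4 values. A window from 250 bases before to 50 bases after the start was available for 33 of the 53 members (47 windows; RefSeq, GRCm38.p6). CACCT on either strand occurred in 25 of 47 member windows (53.2%) and in 50.1% of the 9589 windows of all genes in the table. CACCTG, which contains CACCT, occurred in 14 of 47 (29.8%) against 18.9%, and the POU octamer ATGCAAAT in 2 of 47 (4.26%) against 1.39%. The 250 bases before the start are printed 5′ to 3′ on the strand of the gene, with CACCT or its complement AGGTG in capitals. Foxd3, with the largest decline, has no match in its window, Tdgf1 has 1 in the printed stretch and 2 more at or after the start, Kirrel2 has 1 and Tuba4a 2, and Gca, called lower at d4, has 2 and 1 more after the start. A match is not evidence of binding, and any link between matches and the direction of the d4 values was not tested. The paper searched wider regions around the start for closely spaced pairs of these sequences. It reported an increase in them among genes upregulated in Zeb2 KO. The counts here are of single matches in short windows and cannot be set against that result.
Foxd3 (chr4:99656049-99656298, plus strand): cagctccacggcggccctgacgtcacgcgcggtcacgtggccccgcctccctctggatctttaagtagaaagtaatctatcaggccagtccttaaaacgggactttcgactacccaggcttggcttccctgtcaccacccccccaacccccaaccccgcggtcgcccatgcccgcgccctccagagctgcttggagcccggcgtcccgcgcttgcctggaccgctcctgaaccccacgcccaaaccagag
Tdgf1 (chr9:110946159-110946408, minus strand): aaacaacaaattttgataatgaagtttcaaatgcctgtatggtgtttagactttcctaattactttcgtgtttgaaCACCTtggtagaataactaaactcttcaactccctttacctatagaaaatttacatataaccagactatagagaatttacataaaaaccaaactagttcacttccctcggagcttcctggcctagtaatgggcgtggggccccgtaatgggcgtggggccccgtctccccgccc
Kirrel2 (chr7:30457516-30457765, minus strand): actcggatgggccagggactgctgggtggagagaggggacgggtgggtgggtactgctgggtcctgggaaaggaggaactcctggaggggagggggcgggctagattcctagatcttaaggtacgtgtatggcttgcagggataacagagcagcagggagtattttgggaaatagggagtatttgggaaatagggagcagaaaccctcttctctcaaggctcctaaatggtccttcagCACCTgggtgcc
Tuba4a (chr1:75219295-75219544, minus strand): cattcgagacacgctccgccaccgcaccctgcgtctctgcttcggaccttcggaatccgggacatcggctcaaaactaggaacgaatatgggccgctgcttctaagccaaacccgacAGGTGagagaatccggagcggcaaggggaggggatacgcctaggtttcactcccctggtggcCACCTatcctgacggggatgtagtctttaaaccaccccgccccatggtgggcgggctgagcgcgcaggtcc
Gca (chr2:62664077-62664326, plus strand): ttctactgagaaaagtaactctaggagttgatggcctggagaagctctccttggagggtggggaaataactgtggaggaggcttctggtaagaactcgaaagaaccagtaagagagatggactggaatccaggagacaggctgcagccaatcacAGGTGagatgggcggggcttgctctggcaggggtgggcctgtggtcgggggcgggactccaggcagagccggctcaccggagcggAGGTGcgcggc

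By position, 11 members (20.8%) lay on chromosome 4, which held 7.41% of all genes, and 7 on chromosome 7. None lay on chromosomes 6, 8, 12 or 18. Over all genes, the median difference of Zeb2 KO from Ctrl at d0 was 0.33 on chromosome 8 and 0.36 on chromosome 12. It was 0.08 on chromosome 6 and -0.07 over the whole table. At d4 the medians were -0.20 on chromosome 8, -0.18 on chromosome 12 and -0.24 on chromosome 6, against -0.16 over the whole table. The shift of chromosomes 8 and 12 was thus seen at d0 and not at d4. The rule used the d0 libraries, and the part of this shift in the distribution of the members was not tested. Besides the pairs named above, Prss45 lies 98290 bases from Tdgf1.

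The libraries held 9622622 to 15617675 recovered reads. The summed TPM of 20 general pluripotency genes was 8968 to 9406 in Ctrl and 8064 to 9018 in Zeb2 KO at d0, where these ESC markers were present in every library, and 2655 to 2790 against 6391 to 6989 at d6. That list holds 4 members, which the rule chose with these d0 and d6 libraries, and was made with earlier results known. The d6 difference is therefore in part set by the choice of genes. Utf1 (1501 TPM) and Dppa5a (1336 TPM), no members, had its largest Zeb2 KO means at d6. The summed level of 17 neural markers was 498 to 596 TPM in Ctrl and 265 to 298 in Zeb2 KO at d4, and 1225 to 1353 against 166 to 206 at d6. At d4, 9 of these neural markers were called lower and 1 higher, 6 of 13 endoderm markers were lower and 1 higher, 4 of 10 mesoderm markers were lower and none higher, and 5 of 10 trophectoderm markers were lower and 1 higher, against 32.7% lower and 12.7% higher among all genes. After quantile normalization 7 neural, 5 endoderm, 3 mesoderm and 3 trophectoderm markers were lower. Higher under it were 1 neural, 1 endoderm, no mesoderm and 2 trophectoderm markers. With median-ratio rescaling only the trophectoderm counts changed, to 4 lower and 2 higher. The part of these cell types in the members' values was not tested. In EBs, fewer cells that express a gene and less RNA per cell cannot be told apart.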

How the data were processed

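Total RNA was sequenced as single reads of 36 bases. The authors mapped reads to GRCm38 with TopHat2 2.0.13, counted them per gene with featureCounts 1.4.6, converted the counts to TPM and deposited TPM for genes with at least 5 TPM in at least 3 samples, after removing short noncoding genes and the 20% least variable genes. Strand setting of the counting is not given in the sources used here. The authors also deposited 3 score columns of variability per gene, which were not used. Raw counts were not analysed as such; reads were recovered from the TPM as whole numbers for all 10965 genes (11046 rows, of which 81 repeated an identifier). The table holds 0 values of 0, from which it was inferred that 1 read had been added per gene before conversion; the sources used here do not state this, and recovered reads are given without it.

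Groups followed the sample labels. Values were taken as log2(TPM + 1), and fold changes are on this scale, which understates those of low genes. limma 3.58.1 in R 4.3.3 fitted 6 group means over all 18 libraries, and Zeb2 KO minus Ctrl at d4 was tested with a trended prior. p-values were adjusted over all genes by Benjamini-Hochberg and called under 0.01; they measure the spread between libraries. The step was tested on simulated data. Members and gene lists were chosen with earlier results of these data known. Members named were those on the lists, the 10 with the largest Ctrl decline, the 5 most abundant in Ctrl at d0, up to 8 with the largest positive and 5 with the largest negative called d4 values without overlap, the 5 lowest in Zeb2 KO relative to Ctrl at d0, and the 2 genes nearest each limit; others were named after their values were seen. Alternatives were other pseudocounts, scalings, filters and fits, a replicate block, leaving out libraries, and voom on recovered reads. For 2 of the 53 members, values are not reported here by name; they remain in the counts.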

Additional observations from a re-analysis of the deposited data

How the results depend on the processing

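The number of members called higher at d4 was 33 and stayed between 31 and 39 under other pseudocounts, scalings, filters and fits, except under an unadjusted p below 0.01 with an absolute log2 fold change above 1, where it was 15. It ranged from 28 to 31 when single d4 libraries were left out. Members called lower numbered 2, but 1 with a mean TPM of at least 10, 1 after quantile normalization, 1 without the members already lower in Zeb2 KO at d0 (an alternative chosen after seeing the data) and 0 under the unadjusted threshold. Over all genes, 1397 were called higher and 3591 lower, against 2299 and 2335 after median-ratio rescaling, 2132 and 2276 after quantile normalization, and 239 and 839 under the unadjusted threshold. The median member log2 fold change of 0.79 was 0.49 with a pseudocount of 5, 0.92 after median-ratio rescaling, 0.92 after quantile normalization and 0.98 with voom (chosen after seeing the data), and 0.66 to 0.81 without single libraries.

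The rule itself depended on the scale. It gave 67 genes with a pseudocount of 0.1 (48 of them among the 53), 30 with a pseudocount of 5 (28 shared), 79 after median-ratio rescaling (40 shared) and 134 after quantile normalization (36 shared), and 46 to 62 without single d0 or d6 libraries (43 to 52 shared). Members already lower in Zeb2 KO at d0 numbered 4, but 8 with a pseudocount of 0.1, 10 after median-ratio rescaling and 10 after quantile normalization. Of 312 alternative values of 21 named members, 302 kept their direction and call, 5 lost the call and 2 gained it. The remaining 3 changed sign, all for Prss45, which was never called: 0.32 after quantile normalization, and from -0.34 to 0.045 without single libraries, above 0 without Ctrl d4 replicate 3 (0.039) or Zeb2 KO d4 replicate 2 (0.045). The cause of these changes was not tested.

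The labels give replicate numbers but no pairing, and the main fit did not pair the samples. The deviations of same-numbered d4 libraries correlated weakly, at 0.23, 0.19 and 0.05. Every library correlated best with its own number, a hint of pairing from the data only, and these values cannot decide it. With the replicate block, 33 members were called higher (Nppb gained and Gm16164 lost the call) and 2 lower, and the median stayed at 0.79.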
